A study of Mus musculus with 8 samples.

Results

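The genes described here serve protein folding in the endoplasmic reticulum (ER) and the response to its overload. They were taken from a list of 34 symbols, and a gene was measured where the array annotation gave it a probe set of its own. That held for 33 of the 34, out of 22180 genes measured in that way. Pdia4 had no such probe set and was not analysed here. The measured genes comprised 14 chaperones and folding enzymes, 6 sensors and transcription factors, 6 genes of ER-associated degradation, 5 targets of the transcription factor ATF4 and 3 genes of the translocon. Ddit3, which encodes the factor CHOP, is counted both as a factor and as an ATF4 target.

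The study compared Irak1-/- CD4+ T cells with wt CD4+ T cells, both from C57BL/6 mice, after transfer into the same Rag1-/- recipients. Equal numbers of CD4+CD62L+ cells of the 2 genotypes were injected together, the Irak1-/- cells with the CD45.2 and the wt cells with the CD45.1 form of the surface protein CD45. On day 14 CD3+CD4+ cells were taken from the mesenteric lymph nodes and separated by genotype, at a stated purity above 99.5%. There were 4 such experiments, each of which pooled 2 recipients and gave 1 array per genotype. All groups share the transfer into a host that has no T or B cells of its own but keeps its myeloid and natural killer cells. Genotype and CD45 form go together in every array, so that their parts cannot be told apart. The labels give no age for the mice and no difference between the 4 replicates other than a batch number. Each value below is a log2 level of a probe set, and a level of one gene cannot be set against that of another.

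Proteins made for secretion or for the cell surface enter the ER through the Sec61 channel, where the chaperone BiP and its helpers, lectin chaperones and disulfide isomerases fold them. Chains that fail to fold are drawn back out and degraded. When unfolded protein builds up, the membrane sensors IRE1, PERK and ATF6 start the unfolded protein response: IRE1 splices the Xbp1 mRNA, ATF6 is cut to release a transcription factor, and PERK phosphorylates the initiation factor eIF2 alpha, which slows translation in general but lets ATF4 be made. In T cells this response accompanies activation, when the cells begin to secrete cytokines. XBP1 and ATF6 are known for raising chaperone and degradation genes, ATF4 for raising amino acid and stress genes such as Asns and Ddit3.

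Known targets of this response carry short elements in their promoters, and these are shown because they describe the genes by something the arrays did not measure. RefSeq promoters of build GRCm38.p6, from 250 bases before to 50 after the gene start, were at hand for 28 of the 33 measured genes. The ER stress response element (ERSE), which is CCAAT and CCACG with any 9 bases between them, was found in the promoters of 9 of the 28, against 39 of all 32851 promoters (0.119%). The holders were Hspa5, Hsp90b1, Calr, Canx, Pdia6, Dnajc3, Creld2, Syvn1 and Derl3. The windows below show the element in capitals with 12 bases on either side, read along the strand of the gene. A run that ends in ATTGG is the element on the opposite strand.
Hspa5 (chr2:34772013-34772055, plus strand): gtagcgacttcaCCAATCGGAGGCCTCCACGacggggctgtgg
Hsp90b1, outer site (chr10:86705626-86705668, minus strand): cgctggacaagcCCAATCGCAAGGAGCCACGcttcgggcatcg
Hsp90b1, inner site (chr10:86705521-86705563, minus strand): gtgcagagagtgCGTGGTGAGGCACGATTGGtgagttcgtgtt
Calr (chr8:84847063-84847105, minus strand): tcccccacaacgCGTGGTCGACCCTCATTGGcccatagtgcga
Canx (chr11:50325788-50325830, minus strand): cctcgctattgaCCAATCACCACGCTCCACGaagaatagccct
Pdia6 (chr12:17266479-17266521, plus strand): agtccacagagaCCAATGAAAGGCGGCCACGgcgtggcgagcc
Dnajc3 (chr14:118937815-118937857, plus strand): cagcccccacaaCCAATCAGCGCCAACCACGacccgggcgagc
Creld2 (chr15:88819508-88819550, plus strand): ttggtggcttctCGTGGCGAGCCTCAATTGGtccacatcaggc
Syvn1 (chr19:6046520-6046562, plus strand): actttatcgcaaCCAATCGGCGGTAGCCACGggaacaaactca
Derl3 (chr10:75893230-75893272, plus strand): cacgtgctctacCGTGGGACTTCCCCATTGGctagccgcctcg

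Other elements of the pathway were searched in the same windows. The variant ERSE-II, which is ATTGG and CCACG with any 1 base between them, was held by Dnajb11 and Herpud1, against 12 of all promoters (0.0365%). The C/EBP-ATF response element (CARE), which ATF4 binds, was searched as TGATGNAAN. It was held by Chac1, Trib3, Asns and Herpud1, against 3.95% of all promoters, and of these genes the first 3 were listed as ATF4 targets. The other listed ATF4 targets, Ddit3 and Ppp1r15a, were searched and held no match. The element TGACGTGG, bound by XBP1, was in none of the 28 windows, against 0.676% of all. All motifs were searched on both strands, a match is only a match of letters, and no match says nothing of sites outside the window. The ERSE-II and CARE sites follow in the same form.
Herpud1, ERSE-II (chr8:94386365-94386399, plus strand): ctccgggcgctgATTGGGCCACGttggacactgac
Dnajb11, ERSE-II (chr16:22857840-22857874, plus strand): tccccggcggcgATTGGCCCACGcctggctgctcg
Asns, CARE (chr6:7693212-7693244, minus strand): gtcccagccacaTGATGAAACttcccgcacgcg
Chac1, CARE (chr2:119351036-119351068, plus strand): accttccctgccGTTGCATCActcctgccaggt
Trib3, CARE (chr2:152344027-152344059, minus strand): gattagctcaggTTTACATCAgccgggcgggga
Herpud1, CARE (chr8:94386304-94386336, plus strand): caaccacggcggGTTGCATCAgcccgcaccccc

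The promoter of Hspa5, the gene of BiP and the usual readout of the response, is given whole, since its own level opens the results (chr2:34771840-34772139, plus strand, the exact ERSE match in capitals). Near matches to the element were not searched and are not marked.
Hspa5 promoter: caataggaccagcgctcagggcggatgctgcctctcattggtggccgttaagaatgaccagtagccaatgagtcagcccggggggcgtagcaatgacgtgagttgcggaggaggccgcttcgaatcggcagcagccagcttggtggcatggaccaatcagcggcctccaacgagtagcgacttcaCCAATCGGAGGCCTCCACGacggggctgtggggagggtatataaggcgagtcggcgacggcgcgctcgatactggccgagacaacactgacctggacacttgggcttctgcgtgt

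Before the members, the arrays themselves were examined. Array medians lay between 4.25 and 4.31, and the third Irak1-/- array differed most from the rest, with correlations of 0.957 to 0.970 to the other 7 arrays, against 0.976 to 0.986 among those 7. CD4 T cell markers were high on all arrays, with summed linear levels of 10535 to 12185 in Irak1-/- and 11614 to 12125 in wt arrays over 8 of 10 listed genes. Myeloid markers, 15 of 16 listed, summed to 1349 to 2320 in Irak1-/- arrays and to 706 to 855 in wt arrays, and 4 of the 14 tested, Lyz2, Tyrobp, Fcer1g and H2-Aa, rose at an adjusted p under 0.05 (limma). B and plasma cell markers, 10 of 11 listed, summed to 415 to 590 in Irak1-/- and to 434 to 542 in wt arrays. Those of NK, ILC and CD8 T cells, 11 of 11 listed, summed to 2626 to 3148 in Irak1-/- and to 3126 to 3764 in wt arrays. That list holds Gata3, Rora and Il7r, which are not confined to these cells. Its gene means ran from 3.95 to 10.8 in Irak1-/- arrays, so the sum rests mostly on its highest genes. Gene means of the myeloid list likewise ran from 3.25 to 8.99 in Irak1-/- arrays. None of the summed levels measures the share of a cell type. Mean levels of single markers went down to 2.42, in the B and plasma cell list in Irak1-/- arrays, which is under every array median. The part of these cells in the results below was not tested, and in bulk samples fewer cells of a type and less RNA per cell cannot be told apart.

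The folding and stress genes differed little between the genotypes. Levels high enough for testing, with a mean of at least 3.90 on the log2 scale, were found for 31 of the 33 genes, and none of the 31 rose or fell at an adjusted p under 0.05 (limma with the pairs as a block). Over all 13308 genes tested, 0.0676% rose and 0.00751% fell, 0.0751% in all. The lowest adjusted p among the 31 was 0.717, and 3 had an unadjusted p under 0.05, all lower in Irak1-/- arrays. Of all genes, 6.7% had such a p and 3.82% were lower at it. The fitted differences, Irak1-/- minus wt, ran from -0.40 (Ern1) to 0.17 (Calr), with a median of -0.01 against -0.03 over all genes. Of the 31, 14 lay above 0 and 17 below, where 41.9% of all genes lay above and 58.1% below.

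Intervals of the differences were narrow beside a 2-fold change. The 95% confidence interval lay within 1.5-fold in either direction for 30 of the 31 genes, against 88.1% of all genes, and Ern1 was the exception. For all 31 it lay within 2-fold, against 98.9% of all genes. The 4 Irak1-/- and the 4 wt values overlapped for all 31 genes, whereas the groups did not overlap for 3.04% of all genes. Standard errors of the differences ran from 0.104 to 0.182.

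**Figure D1:**
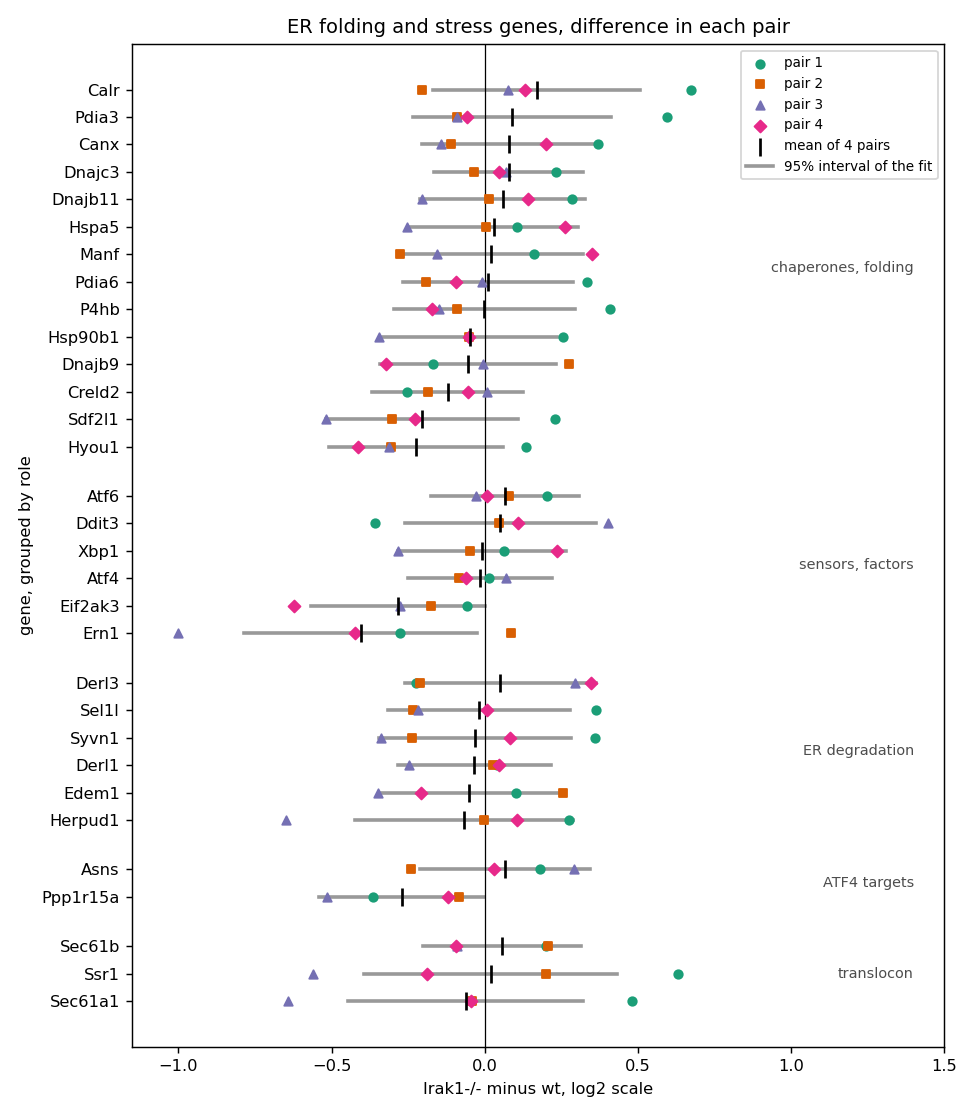
Differences of the 31 tested genes, Irak1-/- minus wt on the log2 scale, by role. Coloured symbols stand for the 4 pairs, black bars for their mean and grey lines for the 95% interval of the limma fit. Ddit3, also an ATF4 target, is drawn among the sensors and factors. The intervals of 28 genes hold 0, and the symbols of pair 1 lie to the right for 24 of 31 genes.

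BiP, the HSP70 of the ER, had close mean levels in the 2 genotypes. Hspa5 (probe set 17370103) read 8.92, 8.76, 8.36 and 8.68 in Irak1-/- replicates 1 to 4, against 8.81, 8.75, 8.62 and 8.41 in the wt arrays of the same pairs. The lowest of the 8 was the Irak1-/- array of replicate 3, and the groups overlapped. The means were 8.68 ± 0.233 in Irak1-/- and 8.65 ± 0.177 in wt arrays (SD, n = 4 each), a fold of 1.02 (95% confidence interval 0.844 to 1.23, limma adjusted p = 0.980). Hsp90b1, the HSP90 of the ER, had 10.72 ± 0.318 in Irak1-/- and 10.77 ± 0.101 in wt arrays, a log2 difference of -0.05 (adjusted p = 0.967).

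The lectin chaperones, which hold glycoproteins until their sugars are trimmed, had positive differences that did not pass. Calr, the gene of soluble calreticulin, read 9.83, 9.39, 9.05 and 9.30 in Irak1-/- arrays and 9.16, 9.59, 8.98 and 9.17 in wt arrays. Its log2 difference of 0.17 (SE 0.148, limma adjusted p = 0.910) came chiefly from pair 1, where it was 0.67, and without that pair it was 0.0013. Canx, the membrane-bound calnexin, had 0.08 with an interval from -0.21 to 0.36. The disulfide isomerases Pdia3, Pdia6 and P4hb had 0.09, 0.01 and -0.0013, and each was higher in Irak1-/- in 1 of 4 pairs, which was pair 1.

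Helpers of BiP split in sign. The J proteins, which hand clients to BiP, had log2 differences of 0.08 (Dnajc3), 0.06 (Dnajb11) and -0.06 (Dnajb9). Hyou1, which recharges BiP with nucleotide, read 7.21, 6.74, 6.51 and 6.50 in Irak1-/- arrays and 7.08, 7.05, 6.82 and 6.91 in wt arrays. It was lower in 3 of 4 pairs, with a difference of -0.22 (interval -0.51 to 0.06, adjusted p = 0.814, limma). Sdf2l1, a partner of the J proteins, was likewise lower in 3 of 4 pairs, at -0.21 (interval -0.52 to 0.11, adjusted p = 0.868, limma). For both genes pair 1 went the other way. Without pair 1 the difference was -0.34 for Hyou1 and -0.35 for Sdf2l1, and without pair 3 it was -0.10 for Sdf2l1. Manf and Creld2, secreted or resident proteins induced by ER stress, had 0.02 and -0.12.

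Among the sensors, Ern1 and Eif2ak3 had the lowest p of their group, and neither passed over all genes. Ern1 encodes IRE1 alpha, the sensor that splices Xbp1. Its probe set 17270888 read 6.80, 7.18, 6.03 and 6.49 in Irak1-/- arrays against 7.08, 7.09, 7.03 and 6.91 in wt arrays. The wt values were tight (SD 0.0803, n = 4) and the Irak1-/- values wide (SD 0.485), and the array of replicate 2 was the highest of all 8. The fold was 0.755 (95% confidence interval 0.580 to 0.983, unadjusted p = 0.0395, adjusted p = 0.717, limma), with lower values in 3 of 4 pairs. Without pair 3, whose difference was -1.002, the log2 difference was -0.21, against -0.40 with it, and the adjusted p was 0.881. The mean difference of the myeloid markers was 0.80, 1.21, 1.60 and 1.48 in pairs 1 to 4, and its part in these values was not tested.

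Eif2ak3, the gene of PERK, was lower in 4 of 4 pairs. Its levels were 6.82, 6.51, 6.13 and 6.24 in Irak1-/- arrays and 6.88, 6.69, 6.40 and 6.86 in wt arrays, so that every Irak1-/- value lay under its partner while the groups overlapped. The fold was 0.822 (95% confidence interval 0.675 to 0.999, unadjusted p = 0.0495, adjusted p = 0.746, limma). Without pair 4, where the difference was -0.62, it was -0.17 on the log2 scale, against -0.28 with it. Of the 31 members 2 were lower in all 4 pairs and 0 higher, against 8.91% lower and 5.26% higher among all genes. Atf6, the gene of the sensor that is cut, had a difference of 0.07 (interval -0.18 to 0.31).

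The transcription factors had differences between -0.02 and 0.05. Xbp1 read 6.02, 6.00, 5.84 and 6.03 in Irak1-/- arrays, against 5.96, 6.04, 6.12 and 5.79 in wt arrays, with 2 of 4 pairs higher and a fold of 0.994 (95% confidence interval 0.822 to 1.20, limma adjusted p = 0.993). The spliced and unspliced forms of its mRNA are not separated by this probe set, so the activity of IRE1 was not measured. Atf4 read 9.76, 9.73, 9.68 and 9.82 in Irak1-/- arrays, against 9.75, 9.81, 9.61 and 9.88 in wt arrays. All 8 values lay within the span of 9.61 to 9.88, and the fold was 0.989 (95% confidence interval 0.840 to 1.16, limma adjusted p = 0.990). ATF4 is controlled chiefly by translation, which an mRNA level does not show. Ddit3 read 6.87, 6.81, 7.06 and 7.10 in Irak1-/- arrays, against 7.23, 6.77, 6.66 and 6.99 in wt arrays. It was higher in 3 of 4 pairs with a difference of 0.05 (interval -0.26 to 0.36), and pair 1, at -0.36, went against the rest.

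**Figure D2:**
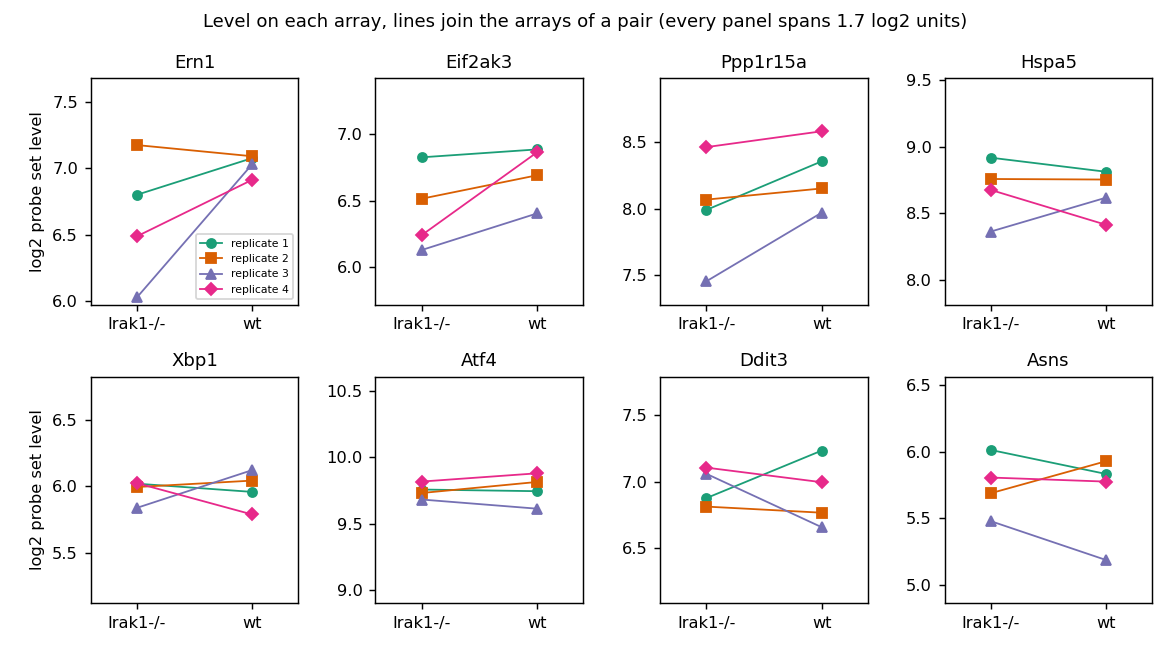
Log2 probe set level of 8 genes on each array, Irak1-/- left and wt right, with a line for each of the 4 pairs. Lines of Eif2ak3 and Ppp1r15a all run upward to wt, those of Ern1 do so in 3 of 4 pairs, and Xbp1, Hspa5, Atf4, Ddit3 and Asns have lines in both directions.

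Genes of ER-associated degradation had differences between -0.07 and 0.05. Syvn1, the HRD1 ubiquitin ligase, its partner Sel1l, and Herpud1, which helps assemble their complex, had log2 differences of -0.03, -0.02 and -0.07. Edem1, which picks out misfolded glycoproteins, had -0.05, and the channel protein genes Derl1 and Derl3 had -0.03 and 0.05. Their adjusted p (limma) were all 0.961 or above. Herpud1 showed the widest swing of the 6, from -0.65 in pair 3 to 0.27 in pair 1. For Edem1 a second probe set gave the same difference of -0.05.

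The translocon genes had differences of both signs over the pairs. Ssr1, a subunit that assists translocation, had pair differences of 0.63, 0.20, -0.56 and -0.19 and a mean of 0.02 (interval -0.39 to 0.43). Sec61a1, the channel itself, had 0.48, -0.04, -0.64 and -0.05 with a mean of -0.06. Sec61b, a small channel subunit, had 0.06 (limma adjusted p = 0.957). A second probe set of Sec61b, with a mean of 4.37, had a difference of -0.19, against 0.06 for the one kept, and a second one of Ssr1 had 0.06.

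ATF4 targets were measured to set the stress arm beside the chaperones. Ppp1r15a encodes GADD34, which restores translation by bringing a phosphatase to eIF2 alpha. It read 7.99, 8.07, 7.45 and 8.46 in Irak1-/- arrays and 8.36, 8.15, 7.97 and 8.58 in wt arrays, lower in 4 of 4 pairs. The log2 difference was -0.27 (SE 0.118, 95% confidence interval of the fold 0.688 to 0.999, unadjusted p = 0.0487, adjusted p = 0.746, limma). Without pair 3 its log2 difference was -0.19, against -0.27 with it. Asns, the enzyme that makes asparagine, read 6.02, 5.69, 5.48 and 5.81 in Irak1-/- arrays, against 5.83, 5.93, 5.19 and 5.78 in wt arrays. Both groups had their lowest Asns value in replicate 3, and the difference was 0.07 (interval -0.21 to 0.34, limma adjusted p = 0.953).

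Trib3, a pseudokinase of the stress response, and Chac1, which breaks down glutathione, had mean levels too low for testing. Trib3 read 3.67, 3.81, 3.63 and 3.67 in Irak1-/- arrays, against 3.58, 3.59, 3.80 and 3.74 in wt arrays. Chac1 read 3.88, 3.61, 3.68 and 3.73 in Irak1-/- arrays, against 3.57, 3.72, 3.61 and 3.74 in wt arrays. All of these values lay under every array median, and no background measure was used here.

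Chaperones and ATF4 targets were then set against each other within pairs, as a description with no test. The mean difference of the 14 chaperones was 0.24, -0.11, -0.15 and -0.02 in pairs 1 to 4. That of the 3 tested ATF4 targets (Ddit3, Asns and Ppp1r15a) was -0.18, -0.09, 0.06 and 0.01. Chaperones minus targets gave 0.42, -0.02, -0.20 and -0.03, with a mean of 0.04 ± 0.266 (SD, n = 4 pairs). The sign was positive in pair 1 alone, and without that pair the mean was -0.08. With Trib3 and Chac1 added to the targets the mean was 0.0055 ± 0.186.

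**Figure D3:**
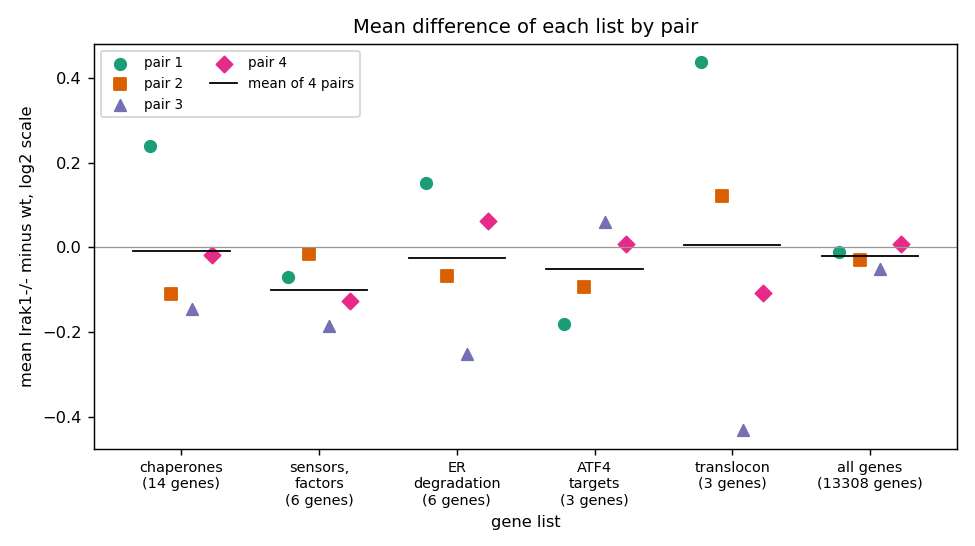
Mean log2 difference, Irak1-/- minus wt, of each gene list (symbols, 1 per pair; line, mean of the 4 pairs), with all tested genes at the right. Chaperones reach 0.24 and translocon genes 0.44 in pair 1, translocon genes lie at -0.43 in pair 3, and all genes lie between -0.05 and 0.01.

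The pairs differed in how these genes lay. In pair 1, 24 of the 31 genes were higher in Irak1-/- (all genes, 49.5%), in pair 2 it was 10 (42.7%), in pair 3 it was 7 (42.5%) and in pair 4 it was 15 (50.2%). The chaperones as a group averaged 8.66, 8.37, 8.06 and 8.19 in Irak1-/- arrays and 8.42, 8.48, 8.20 and 8.21 in wt arrays. Among the Irak1-/- arrays, replicate 1 held the highest value of 13 of the 14 chaperones, where it did so for 33.1% of all genes. Replicate 3 held the lowest value of 9 of the 14 and of 23 of all 31 members, against 39.8% of all genes. Among the wt arrays the highest chaperone values lay in replicate 2, for 9 of 14 genes, against 25.7% of all genes.

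The spread was also divided into shares of the sum of squares over the 8 arrays. The replicate pair took a median of 58.4% over the 31 genes and genotype took 2.23%, against 47.3% and 7.96% over all genes. The pair has 3 degrees of freedom and genotype 1. For chaperones the share of the pair was 68.4%. It reached 93.5% for Creld2, whose levels in replicates 1 to 4 were 7.11, 6.60, 6.40 and 6.72 in Irak1-/- and 7.37, 6.79, 6.39 and 6.78 in wt arrays, and 89.5% for Pdia6. Genotype took its largest share for Ern1 (31.1%), Eif2ak3 (26.8%) and Hyou1 (21.1%). It took over 50% for none of the 31, against 641 of all 13308 genes. Xbp1, Syvn1 and Dnajb9 had little of either, with 83.6%, 91.2% and 86.6% left over. The SD among Irak1-/- arrays exceeded that among wt arrays for 23 of the 31 genes, against 59.0% of all genes, and for 18 without replicate 3, against 47.4%.

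**Figure D4:**
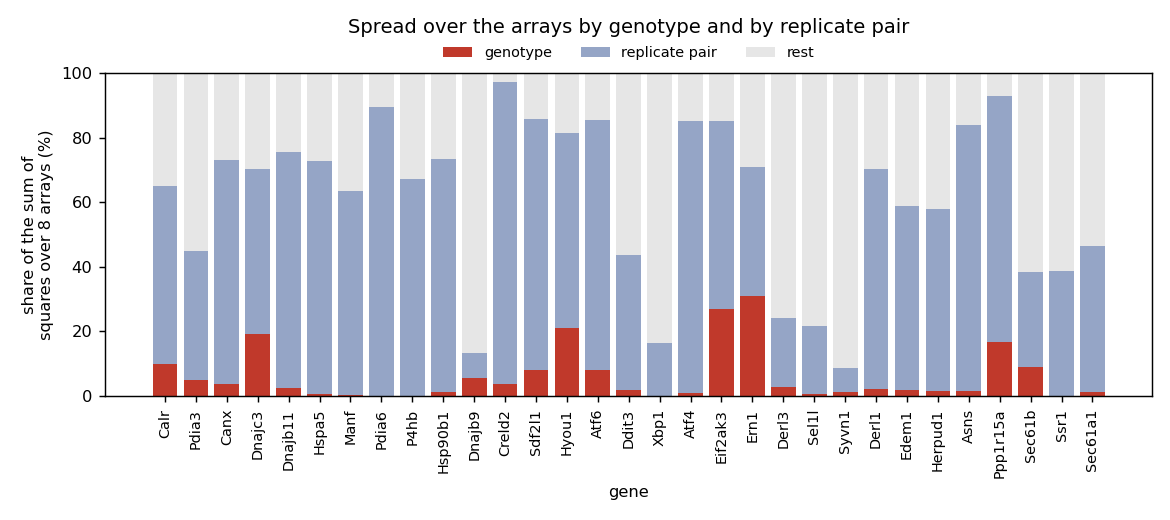
Share of each gene's sum of squares over the 8 arrays (y axis, %) that goes with genotype (red), with the replicate pair (blue) and with neither (grey), for the 31 tested genes. The blue part is over 50% for 20 genes and the red part for none, against 6142 and 641 of all 13308 genes tested.

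Differences were also set out by promoter element, with no test. The 9 genes with ERSE had differences between -0.12 and 0.17 with a median of 0.03, and the 15 tested members whose promoters hold neither ERSE nor ERSE-II had -0.40 to 0.09 with a median of -0.02. By pair, the means of the ERSE holders were 0.21, -0.14, -0.07 and 0.10, and those of the others 0.10, -0.02, -0.22 and -0.14. Ern1, Eif2ak3 and Ppp1r15a, which had the lowest p, were all among the 15, the larger group. They were picked by p from these same data, so nothing about the element follows from their place.

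Further genes of the same pathways were examined as lists, and none of their members passed. Of 113 listed genes 94 were tested, 37 with a positive and 57 with a negative difference and a median of -0.04, against -0.03 over all genes. An unadjusted p under 0.05 was reached by 1 higher and 3 lower genes, where 2.88% of all genes were higher and 3.82% lower at that p. Of the 94, 5 were higher and 5 lower in all 4 pairs, against 5.26% and 8.91% of all genes.

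Other folding genes, 18 tested, had a median of -0.04. Nucb2, a calcium-binding protein of the secretory pathway, had -0.58 (SE 0.161, limma adjusted p = 0.473) and was lower in 4 of 4 pairs. Dnajc10, a reductase of the ER, and Selenok, a selenoprotein of its membrane, had 0.21 and 0.15, each higher in 4 of 4 pairs. Other degradation genes, 14 tested, had a median of -0.04, with 0.25 for Man1b1, a mannosidase (SE 0.105, limma adjusted p = 0.736), -0.21 for the ligase gene Rnf139 and -0.15 for the lectin gene Os9.

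Translocon, oligosaccharyl transferase and export genes, 26 tested, had a median of -0.05. Ddost, a subunit of the enzyme that attaches sugar chains, had -0.41 (SE 0.138, limma adjusted p = 0.603) and was lower in 4 of 4 pairs. The coat genes Sec24d and Sec23b had -0.30 and -0.23. Other regulators of the unfolded protein response, 13 tested, had a median of 0.01, with 0.24 for Creb3l3, -0.19 for Creb3l1 and 0.09 for the protease gene Mbtps2. Other stress kinases and ATF4 targets, 23 tested, had a median of -0.04. Pck2, a mitochondrial enzyme, had -0.29 (limma adjusted p = 0.742), while the factors Atf3 and Cebpb had 0.38 and 0.32, at adjusted p of 0.812 and 0.862 (limma). For Atf3 the difference was 1.23 in pair 4, and for Cebpb 1.13 in pair 3.

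**Figure D5:**
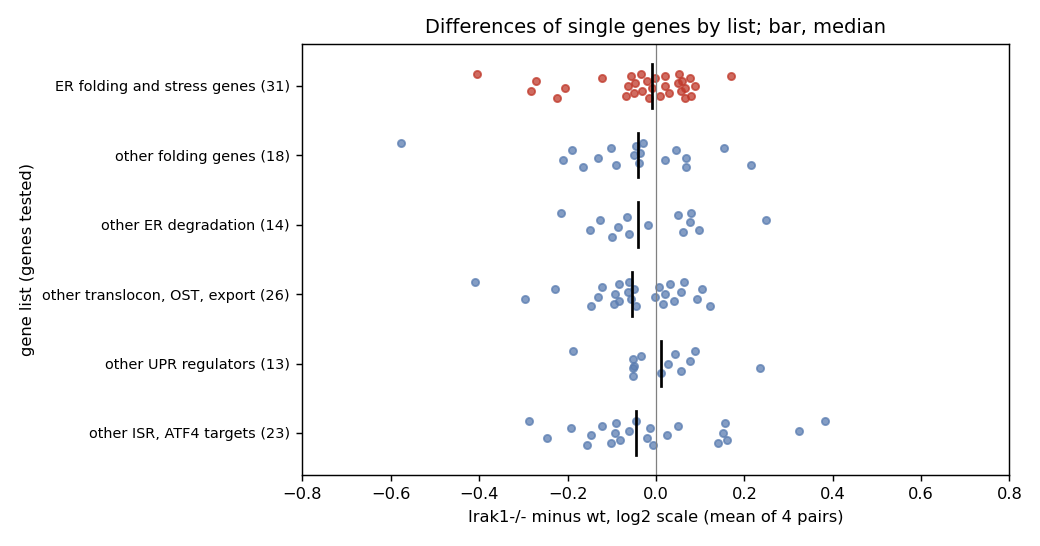
Differences of single genes, Irak1-/- minus wt on the log2 scale, for the 31 ER folding and stress genes (red) and 5 further lists (blue), with the median of each as a black bar. OST stands for oligosaccharyl transferase, UPR for unfolded protein response and ISR for integrated stress response. Every median lies between -0.05 and 0.01.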

How the data were processed

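Per the labels' protocols, RNA was biotin-labelled for 8 Affymetrix arrays. The deposited values are log2 levels of probe sets, between 0.681 and 14.0, as judged from the values. For background correction, summarization, normalization and genome build, the sources used here name no step. Of 41345 probe sets, 23521 carried 1 gene symbol in the platform annotation, 1814 several and 16010 were unnamed here. Per symbol the probe set with the highest mean was kept (22180 genes), and genes under the 40th percentile of mean level were left out (13308 tested). Irak1-/- minus wt was fitted with limma 3.58.1 in R 4.3.3 (lmFit, eBayes) with the batch label as a block, two-sided, with Benjamini-Hochberg adjustment over all genes tested. The block rests on the labels, since the cells of a batch shared their recipients. Deviations of same-numbered arrays from the group means correlated at 0.185, 0.143, 0.200 and 0.0799.

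Members and lists were chosen with earlier results of these data known, so lists carry no test. All members are accounted for. Those with an unadjusted p under 0.05 or 4 concordant pairs, and Hspa5, Xbp1, Atf4, Ddit3 and Asns, are given on every array, as are some others chosen after their values were seen. Up to 3 genes per further pathway list are named by smallest p. On simulated data with 13308 genes, 100 were changed by 1 and 100 by 2 (log2) in each of 5 runs. The fit recovered 76.8% of changes of 1 and 98.0% of changes of 2, with 33 false calls over the runs. In the real data 10 genes were called, which makes the adjustment stricter than in the simulation. Changes as small as those of the members were not simulated. Arrays have no depth, and their number limits precision.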

Additional observations from a re-analysis of the deposited data

Results flagged for a closer look

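One value among the members stood far from the rest of its group. Xbp1 read 5.84 in the Irak1-/- array of replicate 3, while the other Irak1-/- arrays read 6.00 to 6.03. The gap was 0.843 of the range of the group. Among 66 groups of 4 arrays examined, this was 1 such value, and chance gives about 1 in 20 groups, or 3.3. The same array correlated less with the others over all genes, at 0.957 to 0.970.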

How the results depend on the processing

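No member was called (adjusted p under 0.05, limma) under any of the 14 alternatives, and the lowest adjusted p of a member ranged from 0.681 to 0.992. Over all genes, 10 were called, against 16 with the replicate block as a random effect, 21 after median centring, 16 with trend and robust eBayes, and 7 to 17 with 1 pair left out. The 3 members lower at an unadjusted p under 0.05 became 0 without the replicate block, with it as a random effect, after median centring, and without block and Irak1-/- replicate 3. They became 1 after quantile normalization and without the level filter, Ern1 in both. With 1 pair left out they numbered 0 to 3, and the 3 without pair 1 were Eif2ak3, Hyou1 and Sdf2l1, so that Ern1 and Ppp1r15a were not among them. Ern1 was at adjusted p 0.987 without the block.

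Signs of differences near 0 turned under some alternatives, and the cause was not tested. After quantile normalization P4hb was 0.019, Xbp1 0.014, Atf4 0.0050 and Sel1l 0.0033, and after median centring these were 0.021, 0.014, 0.0064 and 0.0019. With probe sets averaged Sec61b was -0.066. Without block and Irak1-/- replicate 3, the values were 0.091 for Hsp90b1, 0.064 for P4hb, 0.035 for Xbp1, 0.0056 for Atf4, 0.12 for Herpud1, 0.033 for Syvn1, 0.039 for Sel1l, 0.061 for Edem1, 0.049 for Derl1 and 0.14 for Sec61a1.

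With 1 pair left out, 21 members took both signs. Chaperones ranged from -0.048 to 0.12 (Hspa5), -0.15 to 0.051 (Hsp90b1), -0.018 to 0.15 (Canx), -0.080 to 0.15 (Pdia3), -0.098 to 0.077 (Pdia6), -0.14 to 0.056 (P4hb), -0.17 to 0.033 (Dnajb9), -0.017 to 0.15 (Dnajb11) and -0.091 to 0.12 (Manf). Factors and targets ranged from -0.090 to 0.083 (Xbp1), -0.044 to 0.0064 (Atf4), -0.067 to 0.19 (Ddit3) and -0.0099 to 0.17 (Asns). Degradation genes ranged from -0.18 to 0.12 (Herpud1), -0.16 to 0.069 (Syvn1), -0.15 to 0.051 (Sel1l), -0.15 to 0.050 (Edem1), -0.060 to 0.037 (Derl1) and -0.047 to 0.14 (Derl3). Translocon genes ranged from -0.24 to 0.13 (Sec61a1) and -0.18 to 0.21 (Ssr1). The 10 members that kept their sign ranged from 0.019 to 0.097 (Atf6), 0.0013 to 0.29 (Calr), -0.17 to -0.077 (Creld2), 0.027 to 0.12 (Dnajc3), -0.36 to -0.17 (Eif2ak3), -0.57 to -0.21 (Ern1), -0.34 to -0.16 (Hyou1), -0.33 to -0.19 (Ppp1r15a), -0.35 to -0.10 (Sdf2l1) and 0.0060 to 0.11 (Sec61b).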

Other observations

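The ERSE search also named genes that were no members. Of 37 genes with the element in a promoter, 17 were tested and 8 of these were not members. Over the 17, 9 differences were positive and 8 negative with a median of 0.0096. Of all genes tested, 41.9% had a positive difference, and their median was -0.03. None of the 17 had an unadjusted p under 0.05 (limma), against 6.7% of all genes. The lowest adjusted p among the 17 was 0.778 (limma), for Xlr3a, an X-linked gene of a lymphocyte-regulated family. It had a log2 difference of 0.31 and was higher in 4 of 4 pairs. That mean came chiefly from pair 2, with 0.21, 0.81, 0.08 and 0.13 in pairs 1 to 4. Pan2, a subunit of an mRNA deadenylase, had -0.14 and was lower in 4 of 4 pairs. Of all genes tested, 14.2% went the same way in all 4 pairs. Ero1b, an oxidase that recharges disulfide isomerases, had -0.05, and Alg12, a mannosyltransferase of the ER, had 0.08. These genes were chosen after their values were seen.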
